A study of Sus scrofa with 4 samples.

Results

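S100A8, S100A12, SLPI and DEFB115 encode secreted antimicrobial proteins, and their transcripts were described here in porcine pancreatic ductal organoids (PPDO) and in the cells of primary porcine pancreas. The 4 genes, of 30282 genes in the count matrices, were chosen by name because earlier results of these same libraries showed that their levels differed between PPDO and primary duct cells. Their levels are therefore a description of that choice, and no test was made on them. In both PPDO libraries S100A8, S100A12 and SLPI were plentiful and lay mostly in a small keratinocyte-like group of cells, whereas DEFB115 gave 6 molecules in all cells kept. In both primary pancreas libraries DEFB115 was plentiful in duct cells, S100A8 and S100A12 were almost absent outside a few myeloid cells, and SLPI was, among named classes, highest in endothelial-like cells.

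Antimicrobial proteins of epithelia and leukocytes form part of innate immunity. S100A8 and S100A12 are calcium-binding proteins of neutrophils, monocytes and stressed or keratinising epithelium that starve microbes of metal ions and act as alarm signals, and S100A8 works as a dimer with S100A9. SLPI is a whey acidic protein (WAP) domain inhibitor of neutrophil serine proteases that also acts on microbes directly, and beta defensins such as DEFB115 are small cationic peptides, many of them made in the male reproductive tract.

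The study grew organoids from pig ducts as a platform for drug screening and profiled them by droplet single-cell RNA-Seq beside the pancreas itself. The libraries (PPDO 1, PPDO 2, primary pancreas 1 and primary pancreas 2) are numbered by their replicate, 2 in each group. PPDO came from hand-picked ducts grown in basement membrane extract, in a medium for human organoids with a WNT3A, R-spondin and noggin supplement, EGF, FGF10 and the TGF-beta receptor inhibitor A83-01. In its results the study describes 1 line from a late postnatal pig and 1 from an adult pig, at passages 4 and 7. By then the cultures were mainly of an immature phenotype. Its methods label the 2 PPDO samples by postnatal day, and both days lie in the study's own late postnatal range. The age of the line called adult is thus not settled. Nothing in the labels ties a line to a library. Each PPDO library was 1 culture well sorted for live cells, so 1 line stands for its age and its passage at once. Primary pancreas came from 2 German landrace pigs of the same age, late postnatal by the study's definition, prepared on different days. They were a wild type and an INS-eGFP pig, in which the insulin promoter drives a green fluorescent reporter. The study drew its organoids from wild-type and INS-eGFP pigs of this background, and its methods do not give the genotype behind each line. According to the study's methods the first pancreas was enriched for hand-isolated ducts, and the second was a sorted pool of cells of the whole suspension, cells bound by a lectin of duct cells, and cells with the reporter. Pig, preparation and day cannot be told apart in the primary libraries, nor can culture, age and pig between PPDO and primary pancreas. The libraries of a group are separate preparations, and p-values measure the spread between them.

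The 4 libraries held between 87043513 and 366263520 unique molecular identifiers (UMIs, each standing for 1 captured RNA molecule), and between 4261 and 8885 cells per library passed the filters on cells. Median depth was 34176 and 34459 UMIs per cell in PPDO 1 and 2, and 10169 and 23651 in primary pancreas 1 and 2. Between 10 and 23 cell barcodes were shared by any pair of libraries. Cells were clustered without the 4 genes, and clusters were called "X-like" from marker lists. In PPDO the matched 10 of 12 ductal markers were all detected, but their summed level was 1347 and 1208 CPM against 28839 and 32997 CPM in the ductal-like cells of the primary libraries. The myeloid markers summed to 49.4 and 46.6 CPM in PPDO 1 and 2, with C1QC at 0, against 8227 and 10124 CPM in the myeloid-like cells of primary pancreas. The ductal-like class held 2310 and 1208 cells and was built of different clusters in the 2 primary libraries, mostly clusters 0, 7 and 8 in the first and cluster 1 in the second.

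S100A8 (ENSSSCG00000006590) lies at chr4:96209670-96210603 and S100A12 (ENSSSCG00000032857) at chr4:96225691-96227030 of Sscrofa11.1, 15.1 kb apart in the S100 gene cluster. S100A9 lies 9.08 kb beyond S100A12 at chr4:96236114-96238989 in the RefSeq annotation, but no feature of the matrices carried its name, and no value is given for it. SLPI (ENSSSCG00000039573) lies at chr17:47595804-47598364. DEFB115 (ENSSSCG00000007216) lies at chr17:35029031-35034148, in a beta defensin cluster with DEFB125 at 18.4 kb and DEFB116 at 29.8 kb. Each of the 4 genes had a feature for its body and a feature for a 10 kb extension past its end, and the sum of both was used.

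Levels are given in CPM, the UMIs of a gene in 1000000 UMIs of the pooled cells. S100A8 stood at 228 CPM in PPDO 1 and 585 CPM in PPDO 2. In the ductal-like cells of primary pancreas it stood at 0.0455 and 0.197 CPM, which were 2 and 5 UMIs, each in a cell of its own. Both organoid libraries were far above both primary sums, the difference for which the gene was chosen. Pooled, the PPDO level was 3907-fold higher (95% interval 1896 to 9718), and on the log2 scale the libraries differed by 11.91 (SD 1.78, n = 2 against 2). Intervals here are exact and cover counting error only, and molecules of 1 cell are not independent.

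S100A12, the neighbouring gene and a ligand of the receptor for advanced glycation end products, stood at 792 and 1722 CPM in PPDO 1 and 2. The ductal-like cells held 0.228 and 0.118 CPM, from 10 and 3 UMIs. The groups lay far apart again, at a pooled PPDO level 6539-fold higher (95% interval 3824 to 12280) and a log2 difference of 12.80 (SD 1.04, n = 2 against 2). All S100A8 and S100A12 UMIs of the ductal-like cells lay in the extension features, and their gene bodies were at 0 in both sums.

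SLPI stood at 148 and 284 CPM in PPDO 1 and 2 and at 3.57 and 2.59 CPM in ductal-like cells of the primary libraries. SLPI was not absent from the primary ductal-like sums, which held 157 and 66 UMIs. The pooled PPDO level was 65.9-fold higher (95% interval 57.8 to 75.4), with a log2 difference of 6.08 (SD 0.74, n = 2 against 2).

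DEFB115 ran the other way. The ductal-like cells held 796 CPM in primary pancreas 1 and 826 CPM in primary pancreas 2, from 34962 and 21003 UMIs. PPDO 1 and 2 held 4 and 2 UMIs, or 0.0133 CPM (95% interval 0.00362 to 0.0340) and 0.00762 CPM (9.2e-04 to 0.0275). The 2 primary sums were close to each other, and both PPDO libraries were near 0. The pooled primary level was 75751-fold higher (95% interval 34801 to 206425), and the log2 difference of PPDO from primary cells was -16.30 (SD 0.57, n = 2 against 2). With the gene body alone, DEFB115 was at 0 UMIs in PPDO and at 463 and 485 CPM in the ductal-like cells.

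**Figure D1:**
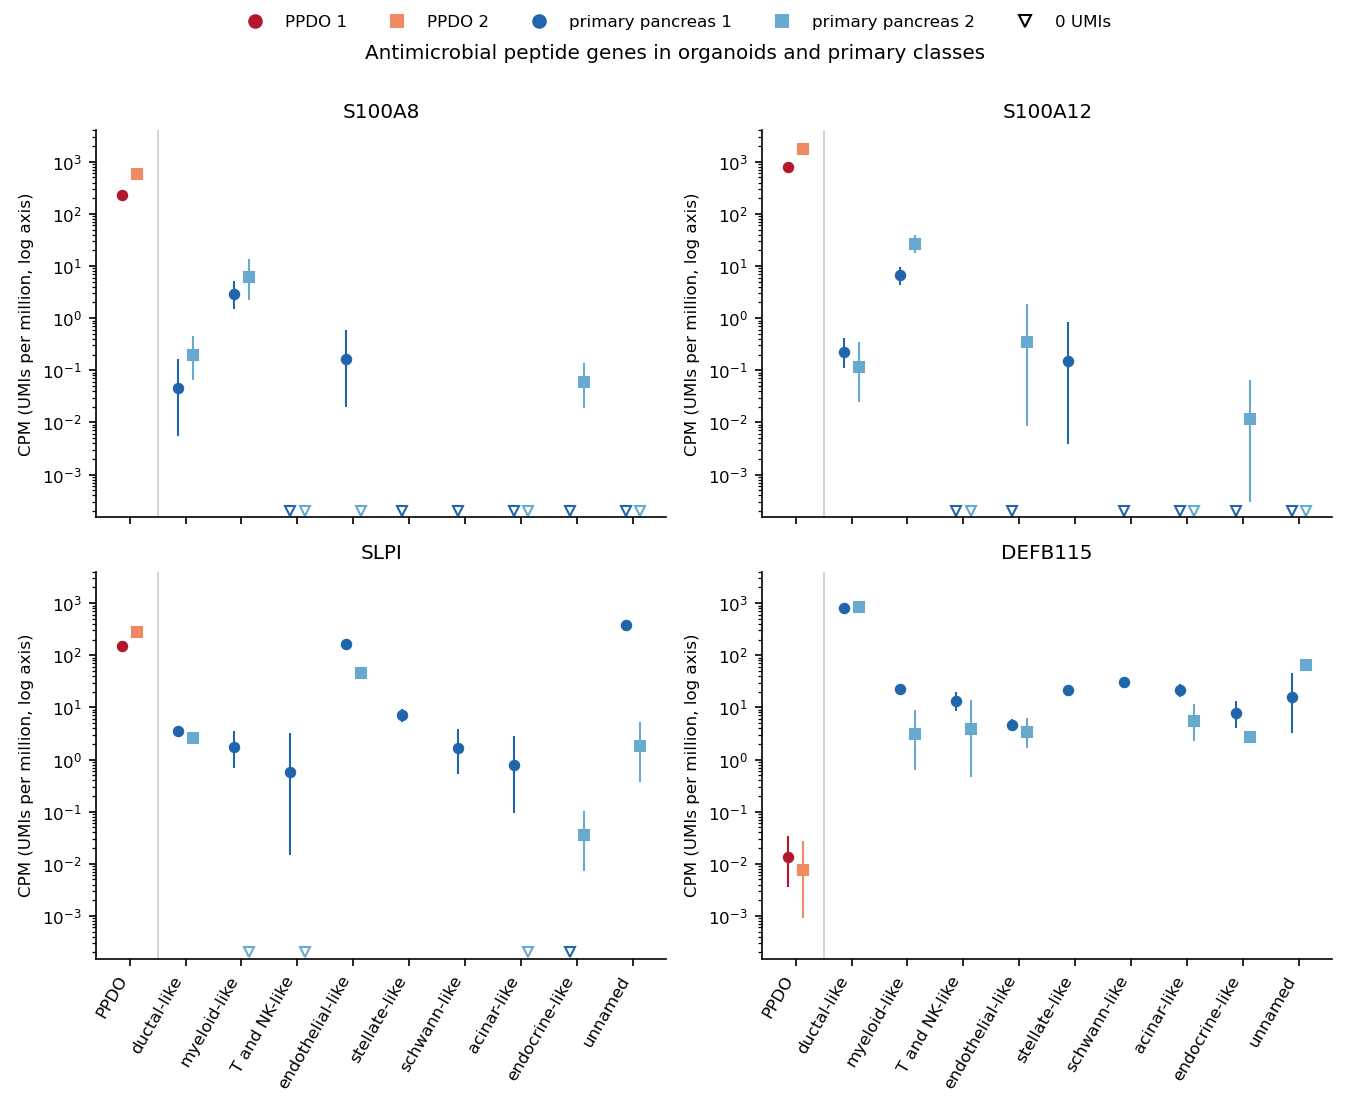
Level of S100A8, S100A12, SLPI and DEFB115 in the 2 PPDO libraries and in the cell classes of the 2 primary pancreas libraries, in CPM on a log axis (vertical). Each point is the pooled sum of 1 class of at least 50 cells in 1 library, bars are 95% Poisson intervals, and triangles at the lower edge mark sums with 0 UMIs. S100A8 and S100A12 are highest in PPDO and next in myeloid-like cells, SLPI is also high in endothelial-like cells, and DEFB115 stands near 800 CPM in ductal-like cells and near 0 in PPDO.

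The organoid libraries differed from each other too. PPDO 2 held 2.57 times the S100A8 level of PPDO 1, 2.17 times its S100A12 level and 1.92 times its SLPI level, each from 1 library a side. S100A8 was higher in PPDO 2 in 9 of 9 clusters of PPDO cells, by 1.67 to 18.0 times, and so was S100A12, by 1.44 to 9.12 times. SLPI was higher in PPDO 2 in 6 of 9 clusters, with ratios between 0.908 and 4.0. Line, age, passage and library cannot be told apart in this difference.

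The share of cells with a transcript depends on depth, so each cell was thinned to 3000 UMIs. S100A8 was then found in 6.99% of PPDO 1 cells and 20.9% of PPDO 2 cells, against 26.0% and 60.8% unthinned. S100A12 was found in 13.9% and 26.0% (46.3% and 69.9% unthinned), and SLPI in 7.69% and 8.19% (30.9% and 31.7% unthinned). Most organoid cells thus held no S100A8, S100A12 or SLPI molecule at this depth. In ductal-like cells thinned to this depth S100A8 was found in 0 of 2079 and 0 of 1208, which allows up to 0.144% and 0.248% of cells with a UMI at 3000 UMIs per cell. Without thinning, 0.0866% and 0.414% of ductal-like cells held it, so the limits hold for the thinned depth alone. S100A12 was found in 1 ductal-like cell of primary pancreas 1 and in 0 of primary pancreas 2. SLPI was found in 0.770% and 0.497% of them. The thinning left out 61 and 10 PPDO cells and 231 ductal-like cells of primary pancreas 1 that were too shallow.

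DEFB115 was found in 73.5% and 78.1% of thinned ductal-like cells, and in 86.0% and 95.1% before thinning, at median depths of 17317 and 20468 UMIs. In endothelial-like cells it was found in 4.38% and 3.79% unthinned, at median depths of 9212 and 9809 UMIs. After thinning, it was found in 1.07% and 1.14% of them. In PPDO 1 it was found in 4 of 8885 cells unthinned (0.0450%) and in 0 of 8824 thinned cells, which allows up to 0.0340% of cells with a UMI at the thinned depth. In PPDO 2 it was found in 2 of 7337 cells unthinned (0.0273%) and in 1 of 7327 thinned cells.

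Within PPDO the S100 genes and SLPI were gathered in 1 cluster. This cluster, cornified-like by its markers of the outer, keratinising layer of squamous epithelium, was led by SPRP, KRTDAP, DMKN and CNFN and held 409 and 499 cells, 4.60% and 6.80% of PPDO 1 and 2. S100A8 stood there at 3800 and 6350 CPM, 39.4 and 15.8 times the next cluster of the same library. S100A12 stood there at 12463 and 17959 CPM, and SLPI at 2327 and 3538 CPM. The cluster held 84.8% and 78.6% of all S100A8 UMIs of PPDO 1 and 2, 80.0% and 75.6% of S100A12 UMIs, and 79.8% and 90.1% of SLPI UMIs. DEFB115 was at 0 UMIs in it, and no cluster held more than 2. The cluster led by SPP1 and KRT4 held 2 of the 4 DEFB115 UMIs of PPDO 1 and 0 in PPDO 2. Clusters come from the same cells, so these levels are a description.

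**Figure D2:**
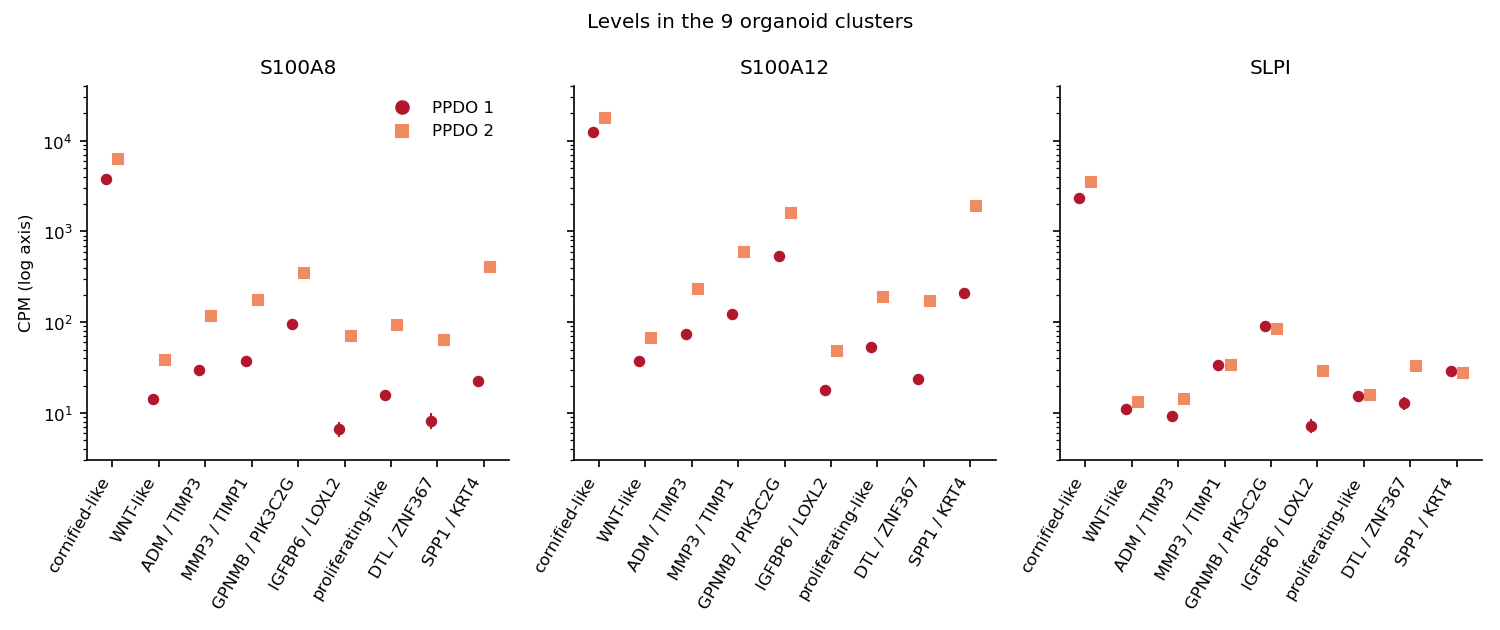
Level of S100A8, S100A12 and SLPI in the 9 clusters of PPDO cells, in CPM on a log axis, with 1 point per library and 95% Poisson intervals. The cornified-like cluster lies above every other cluster in both libraries for all 3 genes, and PPDO 2 lies above PPDO 1 in all 9 clusters for S100A8 and S100A12.

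After thinning, 54.9% and 77.8% of cornified-like cells of PPDO 1 and 2 held S100A8, 77.7% and 89.4% held S100A12, and 52.5% and 62.3% held SLPI. Outside the cluster these shares were 4.67% and 16.7%, 10.8% and 21.4%, and 5.53% and 4.23%. The pooled share outside the cornified-like cells was higher in PPDO 2 for both S100 genes and lower in PPDO 2 for SLPI, although SLPI levels differed between the libraries in either direction by cluster.

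The next cluster in PPDO 1 was the same for the 3 genes, and in PPDO 2 it differed between the S100 genes and SLPI. The cluster led by GPNMB and PIK3C2G, with 1347 and 781 cells, held S100A12 at 543 and 1586 CPM and S100A8 at 96.4 and 347 CPM. The cluster led by SPP1 and KRT4, with 342 and 204 cells, held S100A12 at 209 and 1903 CPM and S100A8 at 22.4 and 403 CPM, so that it ranked next in PPDO 2 for the S100 genes. Its best-matching marker list was the ductal one, with 6 of 10 markers raised, though none was among its leading genes. Ductal markers summed to 2921 and 3052 CPM in it, against at most 1337 and 1231 CPM in the other clusters of PPDO 1 and 2. SLPI stood at 91.9 and 83.4 CPM in the GPNMB cluster, next in both libraries, and at 28.9 and 27.5 CPM in the SPP1 cluster. The lowest clusters held 6.60 CPM of S100A8, 18.0 CPM of S100A12 and 7.22 CPM of SLPI in PPDO 1. The 13 cornified markers were at a summed 8825 and 15894 CPM in the cornified-like cluster of PPDO 1 and 2, 100.4 to 508 CPM in the other clusters of PPDO 1 and 168 to 1101 CPM in those of PPDO 2. Among the other clusters the GPNMB cluster had the highest sum in both libraries (508 and 1101 CPM), while the SPP1 cluster, next for the S100 genes in PPDO 2, was at 419 CPM there, below 3 others. CRNN, a defining marker, was at 0 in 6 of 9 clusters of PPDO 1, the cornified-like cluster included, and in 4 of 9 of PPDO 2. Free RNA was not removed and doublets were not searched for in PPDO, and the part of free RNA and mixed droplets in the levels outside the cornified-like cluster was not tested. With the cornified-like cells left out, a choice made after seeing the data, S100A8 stood at 36.6 and 135 CPM, S100A12 at 167 and 454 CPM, and SLPI at 31.6 and 30.2 CPM in PPDO 1 and 2. The log2 differences from the ductal-like cells were then 9.54, 10.71 and 3.34.

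Single cells carried much of the signal. In PPDO 1, 34 of 8885 cells (0.383%) held 50% of all S100A8 UMIs, and in PPDO 2 it took 81 of 7337 cells (1.10%). For S100A12 the numbers were 56 and 109 cells, and for SLPI 40 and 55 cells. The highest cell of PPDO 1 held 3961 UMIs of S100A8, and the highest for S100A12 held 9863. DEFB115 was spread more widely in primary pancreas, where 432 cells (7.62%) and 290 cells (6.81%) held 50% of its UMIs and the highest cells held 102 and 94. SLPI lay in few cells of primary pancreas too, with 50% of its UMIs in 21 cells (0.370%) and 17 cells (0.399%). The highest cells for SLPI held 165 and 17 UMIs there.

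**Figure D3:**
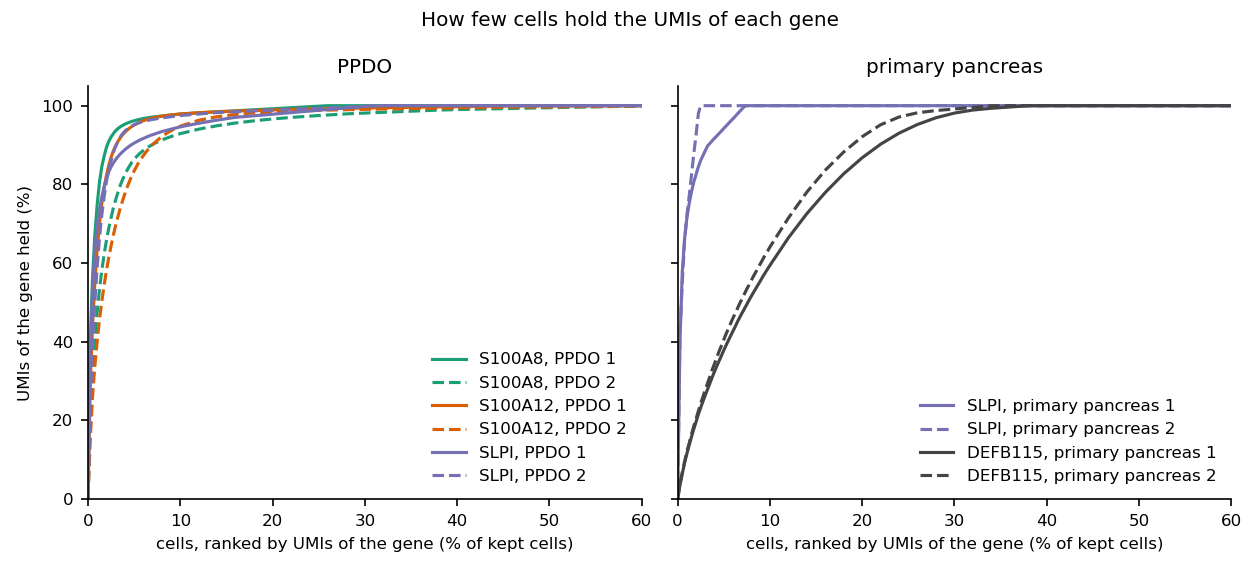
Cumulative share of the UMIs of each gene (vertical axis, percent) against the share of cells, ordered from the cell with most UMIs (horizontal axis, percent of kept cells, shown up to 60%), by library. S100A8, S100A12 and SLPI in PPDO reach 50% of their UMIs within 1.49% of cells, and DEFB115 in primary pancreas reaches it at 7.62% and 6.81%.

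In PPDO, cells with S100A8 more often held S100A12 and SLPI than cells without it. Among thinned cells of PPDO 1, S100A12 was found in 66.6% of cells with S100A8 and in 9.92% of those without it, and in PPDO 2 in 55.0% and 18.3%. SLPI was found in 45.4% of cells with S100A8 and 4.86% of those without in PPDO 1, and in 23.9% and 4.04% in PPDO 2. The pairing of the S100 genes also held within the cornified-like cluster, where S100A12 was found in 94.6% and 95.9% of cells with S100A8 against 57.1% and 66.7% of those without. Outside it the shares were 50.6% and 41.1% against 8.84% and 17.4%. SLPI was found within the cluster in 72.3% and 71.6% of cells with S100A8 against 28.3% and 28.8% of those without. Outside it SLPI was found in 118 of 393 cells with S100A8 against 4.33% of those without in PPDO 1, and in 7.63% against 3.55% in PPDO 2, where the 2 shares were closest.

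Across 18 sums of PPDO cluster by library, the genes most like the members were found by Pearson's r of log2(CPM + 1) among 7396 genes. S100A8 and S100A12 followed each other at r = 0.963, and each followed SLPI at 0.887 and 0.884. Beside S100A12, S100A8 followed DSC2 (0.945) and JUP (0.932), which encode the desmosome proteins desmocollin 2 and plakoglobin, and PDZD11 (0.928) and CTSC (0.924). CTSC encodes cathepsin C, the protease that activates neutrophil serine proteases. S100A12 followed TMEM254 (0.959), the keratin gene KRT23 (0.956), PLA2G4E (0.955) and CTSC (0.954). SLPI followed C10orf90 (0.969), the retinol dehydrogenase genes RDH12 (0.967) and RDH11 (0.964), the desmoglein gene DSG1 (0.964) and SBSN (0.964), which encodes suprabasin of differentiating keratinocytes. The sums share 2 libraries and 1 high cluster, and these values are descriptions.

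In primary pancreas, S100A8 and S100A12 were highest in the myeloid-like class, which held 457 and 65 cells in primary pancreas 1 and 2 from cluster 12, led by CD300C, and cluster 15, led by CCL8 with the macrophage genes C1QB and CD163. S100A8 stood there at 2.94 CPM (95% interval 1.52 to 5.14) and 6.17 CPM (2.26 to 13.4). S100A12 stood there at 6.62 CPM (4.36 to 9.63) and 26.7 CPM (17.5 to 39.2). These levels rested on few cells. S100A8 was found in 3 and 2 cells, and S100A12 in 3 and 5 cells.

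Cells with 2 or more UMIs of S100A8 or S100A12 in primary pancreas were all myeloid-like. There were 2 such cells of 457 in primary pancreas 1, with 37 UMIs together, and 4 of 65 in primary pancreas 2, with 31 UMIs. In every other class these genes appeared as single UMIs. No cluster was neutrophil-like. The 6 of 8 neutrophil markers that matched summed to 32.4 and 81.2 CPM in the myeloid-like cells, with MPO and MMP8 at 0. The S100A8 level of all PPDO cells was thus above that of the primary myeloid-like cells, by comparison of 228 and 585 CPM with 2.94 and 6.17 CPM.

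SLPI had another pattern. It stood at 164 CPM in the endothelial-like cells of primary pancreas 1 (1073 cells) and at 45.2 CPM in those of primary pancreas 2 (264 cells), and was found in 23.7% and 18.6% of them unthinned, at median depths of 9212 and 9809 UMIs. Thinned to 3000 UMIs, 13.1% and 7.20% of endothelial-like cells held it. In endocrine-like cells it was found unthinned in 0 of 101 and in 0.136% of 2203 cells, at median depths of 12878 and 39457 UMIs. Thinned, it was found in 0 of 73 and 0 of 2203 of them, which allows up to 4.11% and 0.136% of cells with a UMI at that depth. Myeloid-like cells held 1.72 CPM in primary pancreas 1 and 0 UMIs in primary pancreas 2, and stellate-like cells held 7.04 CPM and 0 UMIs.

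Within the endothelial-like class of primary pancreas 1, SLPI was highest in cluster 18, led by SEMA3G, TMEM100 and CLDN5, with GJA5 and BMX among its leading genes. It stood there at 941 CPM (95% interval 895 to 989) in primary pancreas 1, where 85 of 148 cells held it unthinned and 50.4% after thinning, and at 65.7 CPM (31.5 to 121) in primary pancreas 2, where 3 of 14 cells did. SEMA3G, GJA5 and BMX are known from arterial endothelium. The other endothelial-like clusters held 52.6 CPM (cluster 4, primary pancreas 1), 53.7 CPM (cluster 16, primary pancreas 2), and 13.3 and 8.73 CPM (cluster 13). In primary pancreas 2, cluster 18 had 10 UMIs, and its interval includes the level of cluster 16, so these were not ranked. The unnamed cluster 21, led by CXCL9 and FABP4, held SLPI at 377 CPM in 20 of its 124 cells in primary pancreas 1, at a median depth of 1297 UMIs per cell. Endothelial markers summed to 9919 CPM in it, against 10607 CPM in the endothelial-like class of that library, with 8 of 12 raised, and it was left unnamed because of its low depth with none of these markers among its leading genes.

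DEFB115 followed the ductal-like class in both primary libraries. The other classes of at least 50 cells held 4.65 to 30.9 CPM in primary pancreas 1 and 2.65 to 66.3 CPM in primary pancreas 2, so the ductal-like level was 25.7 and 12.4 times the next. That next class in primary pancreas 2 was the unnamed cluster 9, which also held 64.5 CPM of CFTR, the chloride and bicarbonate channel of duct cells. In primary pancreas 1, DEFB115 and CFTR, each in percent of its own ductal-like level, were close in some classes. They stood at 2.69% and 2.70% in acinar-like, 2.71% and 2.55% in stellate-like, 3.89% and 4.09% in schwann-like, and 2.00% and 2.26% in unnamed cells. The value of the unnamed cells rested on 3 DEFB115 UMIs, too few to compare with CFTR. The duct genes SCTR, PKHD1 and SLC4A4 stood at 2.07%, 1.30% and 1.18% in acinar-like and 2.27%, 2.60% and 1.98% in stellate-like cells. They stood at 2.63%, 3.29% and 2.68% in schwann-like cells and at 0, 0 and 0.790% in unnamed cells. In other classes DEFB115 and CFTR were apart, at 2.87% and 4.59% in myeloid-like, 1.66% and 0.244% in T and NK-like, 0.966% and 0.377% in endocrine-like, and 0.584% and 0.353% in endothelial-like cells. In primary pancreas 2 they stood at 8.03% and 8.13% in unnamed, 0.374% and 0.389% in myeloid-like, and 0.415% and 0.561% in endothelial-like cells. Endocrine-like cells there held 0.321% and 0.191%, acinar-like 0.672% and 0.998%, and T and NK-like 0.469% and 0.976%. The myeloid-like, T and NK-like, acinar-like and endothelial-like values of primary pancreas 2 rested on only 3, 2, 7 and 10 DEFB115 UMIs. In 4 of these classes of primary pancreas 1, cells with 3 or more DEFB115 UMIs held most of the molecules. These were 8 of 752 stellate-like cells with 79.9% of the class's UMIs, 6 schwann-like cells with 85.1%, 5 myeloid-like cells with 76.3% and 3 acinar-like cells with 51.9%. Of them 7, 4, 5 and 1 also had 3 or more CFTR UMIs. The other classes of that library had 0 to 2 such cells, with 39.1% of UMIs or less, and none of these cells had as many CFTR UMIs. In primary pancreas 2, 6 endocrine-like and 3 unnamed cells held 9.33% and 8.18% of their class's UMIs, none with 3 or more of CFTR. The part of mixed droplets and free RNA in these low levels was not tested.

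Among ductal-like clusters DEFB115 varied more than CFTR. In primary pancreas 1, it stood at 793 CPM in cluster 0 (1293 cells, led by OSGIN1 and AADAC), at 999 CPM in cluster 8 (435 cells, led by DSP and CFTR) and at 296 CPM in cluster 7 (458 cells, led by TCN1 and TM4SF20, with S100A2, PIGR and the stem cell marker LGR5 among its leading genes). In primary pancreas 2, it stood at 844 CPM in cluster 1 (1107 cells, led by FZD5) and at 108 CPM in cluster 23 (64 cells, with NGEF and PKHD1 among its leading genes). Cluster 7 in primary pancreas 1 and cluster 23 in primary pancreas 2 were thus at 37.2% and 13.1% of the ductal-like level of their library. Their CFTR was at 87.2% and 135%. Each of these low levels was seen in 1 library. Cluster 7 also had 17 cells in primary pancreas 2, with 297 DEFB115 UMIs, beside 21003 UMIs in the 1208 ductal-like cells there. Those 17 cells were too few to be given a level, so the low level of cluster 7 was not shown in that library. SCTR, PKHD1 and SLC4A4 stood at 115%, 106% and 75.2% in cluster 7 and at 135%, 163% and 143% in cluster 23. Other ductal markers departed as well. SOX9, ANXA4, KRT7 and EPCAM were not among the raised markers of cluster 23, nor was SOX9 among those of cluster 7. At a finer clustering (resolution 1.0), TCN1, TM4SF20 and LGR5 were leading genes of a smaller cluster of 73 and 17 cells. DEFB115 was not summed there, so its level in cells with LGR5 was not tested. After thinning, DEFB115 was found in 34.8% of cells of cluster 7 and 17.2% of cluster 23, against 80.5% in cluster 0, 83.8% in cluster 8 and 81.2% in cluster 1. Median depth was 5309 UMIs per cell in cluster 7 and 11323 in cluster 23, against 21975 in cluster 0. The shallow cluster 20, led by MT1X and WFDC2, held 2095 CPM in 123 cells of primary pancreas 1 at a median of 1082 UMIs per cell. That was 263% of the ductal-like level, while CFTR, SCTR, PKHD1 and SLC4A4 were at 47.3%, 26.4%, 5.89% and 23.0%. Among the raised ductal markers of cluster 20 were SOX9, ANXA4, KRT7 and EPCAM, so duct genes other than DEFB115 also differed between clusters. The part of RNA quality and depth in these differences between clusters was not tested.

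**Figure D4:**
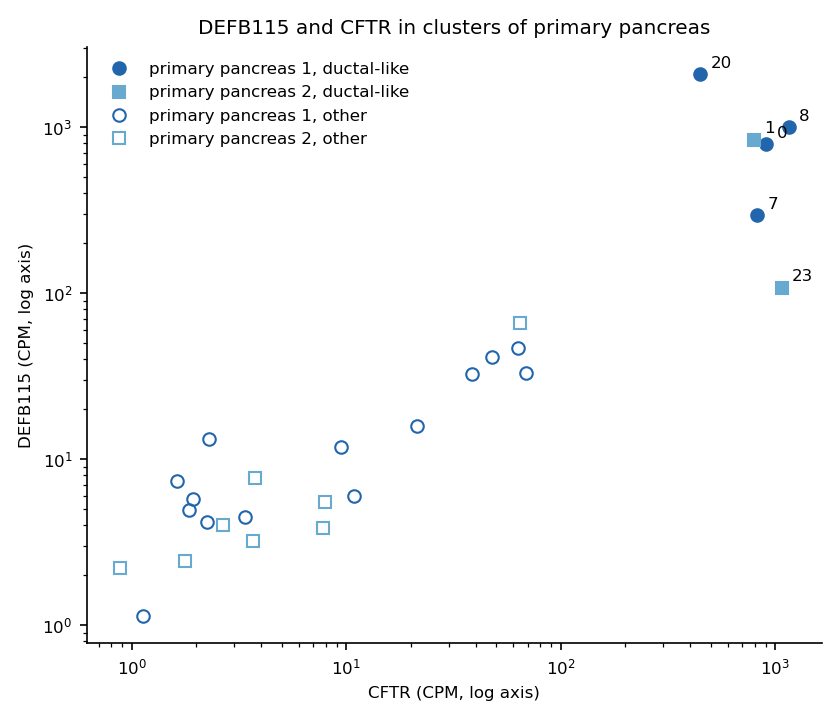
Level of DEFB115 (vertical axis) against that of CFTR (horizontal axis) in the clusters of primary pancreas, both in CPM on log axes, with 1 point per cluster of at least 50 cells and library. Closed points are ductal-like clusters, with their numbers, and open points are all others. Clusters 7 and 23 lie below the other ductal-like clusters in DEFB115, with CFTR at 820.1 and 1069 CPM against 796 to 1152 CPM in clusters 0, 1 and 8.

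Across 14 sums of primary class by library and 10233 genes, DEFB115 was most like SCTR, the receptor for secretin (r = 0.986), NECTIN4 (0.982), VEPH1 (0.980), the duct keratin KRT7 (0.978) and TMEM200A (0.976). SLPI was most like SEMA3F (0.956), the water channel gene AQP1 (0.956), the endothelial genes MMRN2 (0.954) and ESAM (0.951), and ROBO3 (0.950). These sums share 2 libraries and the same classes, and the values are descriptions. S100A8 and S100A12 had too few UMIs there for such a search.

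Extension features took different shares of the 4 genes. Over all barcodes, the extension held 41.7% and 41.9% of DEFB115 UMIs in primary pancreas 1 and 2, and all of the 6 and 2 UMIs in PPDO 1 and 2. It held 1.03% and 4.93% of S100A8 UMIs in PPDO but 31.2% and 71.4% in primary pancreas. For SLPI it held less than 0.5% of UMIs in every library, at most 0.478%.

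The other genes of these families and of the same pathways were tested between PPDO and primary ductal-like cells with edgeR's quasi-likelihood test on summed counts, 2 libraries against 2, with Benjamini-Hochberg adjustment over all genes. Of 23558 genes tested, 43.6% were called at a false discovery rate (FDR) of 0.05, 22.8% as higher and 20.9% as lower in PPDO. The 6 lists held 125 genes, of which 78 matched the matrices and 62 were tested. Of these, 25 (40.3%) were higher in PPDO and 10 (16.1%) lower, and 27 did not pass. The median log2 fold change was 0.57 over the lists and 0.01 over all genes. All 6 lists were chosen with earlier results of these libraries known, so these shares and this median give no independent support. Among the 25 genes, S100A3, S100A5, CHI3L1, KLK5 and KLK7 passed the filter on low counts only through PPDO. These genes could only be called higher or not called.

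Of the 6 lists, the other S100 genes had the largest share called, 90.0%, against 43.6% of all genes. This list was chosen with the high S100A8 and S100A12 levels of these libraries known, so it gives no independent support. Of its 18 genes, 11 matched the matrices. Of 10 other S100 genes tested, 8 rose and 1 fell, with a median log2 fold change of 3.62, and 1 of the 8, S100Z, lost its call without PPDO 1 (FDR 0.10) or PPDO 2 (FDR 0.074). S100A2, an S100 gene of basal squamous epithelium, was at 9186 and 9116 CPM in PPDO 1 and 2 and at 41.3 and 28.1 CPM in the primary sums (log2 fold change 8.47, SE 0.41, FDR 6.0e-04). S100A6 was at 3191 and 4074 CPM against 77.7 and 90.1 CPM (5.91, SE 0.24, FDR 4.3e-04). S100A3, known from the hair cuticle, and S100A5 were at 2.48 and 5.95 CPM and at 2.28 and 2.72 CPM in PPDO, against 1 and 2 UMIs in the pooled primary cells. Their pooled ratios were 284 (95% interval 51.0 to 11235) and 86.2 (23.8 to 712), and both passed, at an FDR of 0.0039 and 0.0032. Both were kept by the filter on low counts only through PPDO, where they are high. They could thus only be called higher or not called. S100A1, known from muscle, was the gene that fell, from 409 and 548 CPM in primary cells to 21.4 and 22.1 CPM in PPDO (log2 fold change -3.99, SE 0.16, FDR 4.1e-04).

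Of 4 other WAP domain genes tested, 2 rose and 1 fell. WFDC1 was at 52.0 and 36.2 CPM in PPDO against 1.87 and 0.825 CPM (log2 fold change 5.40, SE 0.54, FDR 0.0026). WFDC2, a gene of ductal epithelia, was at 23.0 and 8.89 CPM against 511 and 316 CPM, so it fell while SLPI was at its higher level in PPDO (log2 fold change -4.29, SE 0.60, FDR 0.0064). WFDC10A stayed under 1 CPM in all 4 sums (1.96, SE 0.40, FDR 0.018), and without PPDO 1, PPDO 2 or primary pancreas 1 its FDR was 0.10, 0.14 and 0.052.

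Among 6 other beta defensins tested, none rose and 1 fell. The gene that fell, DEFB110, was at 0.106 and 0.0724 CPM in PPDO against 0.296 and 0.472 CPM (log2 fold change -1.60, SE 0.42, FDR 0.036), and it lost its call without any 1 of the libraries, at an FDR of 0.16 without PPDO 1, 0.26 without PPDO 2, 0.059 without primary pancreas 1 and 0.10 without primary pancreas 2. Neither of 2 cathelicidin genes tested passed, with a median log2 fold change of 0.20. DEFB1 was carried by 2 gene identifiers and was left out of the counts. The more abundant of them was at 17.0 and 30.2 CPM in PPDO 1 and 2 and at 19.1 and 17.6 CPM in ductal-like cells.

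Of 23 other epithelial defence genes tested, 9 rose and 5 fell. Of the 9, 5 lost their call without PPDO 2 (RNASE4, HAMP, CHI3L1, PGLYRP3 and ADM) and 3 without PPDO 1 (HAMP, PGLYRP3 and ADM), and HAMP lost it in 9 of 13 alternatives. RNASE4 lost its call in 4 of 13 alternatives, also with the replicate block (FDR 0.051) and without either primary library. Without PPDO 2 the log2 fold change was 0.62 for RNASE4, 1.49 for HAMP and 2.05 for PGLYRP3. Without PPDO 1 it was 1.34 for HAMP and 1.67 for PGLYRP3. PIGR, the receptor that carries immunoglobulin A across epithelium, was at 0.252 CPM in both PPDO libraries against 43.2 and 52.0 CPM (log2 fold change -7.09, SE 0.19, FDR 3.3e-04). CCL28, a mucosal chemokine, was at 1.46 and 2.15 CPM against 121 and 166 CPM (-5.83, SE 0.31, FDR 6.9e-04). RARRES2, which encodes chemerin, and GNLY, which encodes granulysin, also passed, with log2 fold changes of -4.99 and -4.08. GNLY led the T and NK-like cluster of primary pancreas, and the part of lymphocyte RNA in its level was not tested. Among genes that rose, PGLYRP4, a peptidoglycan recognition protein, was at 1.82 and 3.49 CPM against 0.182 and 0.432 CPM (3.66, SE 0.60, FDR 0.0095), and DUOX2, an oxidase that makes hydrogen peroxide, rose by 3.12 on the log2 scale (SE 0.41, FDR 0.0052). CHI3L1 had 76 and 116 UMIs in PPDO 1 and 2 and 0 in primary cells, at least 7.88-fold higher against a floor of 3 counts over the group (FDR 0.016). It was kept by the filter on low counts only through PPDO, and could only be called higher or not called. ADM, which encodes adrenomedullin, was at 158 and 163 CPM against 4.48 and 0.0393 CPM (6.44, SE 1.53, FDR 0.028), and at an FDR of 0.083 without PPDO 1 and 0.087 without PPDO 2.

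Of 17 partner genes tested, the receptors, proteases and regulators that act with the 4 members, 6 rose and 2 fell. Of the 6, ELANE lost its call without PPDO 1 (FDR 0.058), and IL22RA1 lost it without PPDO 1 (FDR 0.095), without PPDO 2 (FDR 0.12) and with sums thinned to the smallest (FDR 0.051). KLK7 and KLK5, the kallikrein proteases of the cornified layer, were at 24.8 and 115 CPM and at 3.04 and 5.62 CPM in PPDO 1 and 2, against 1 UMI each in the pooled primary cells. Their pooled ratios were 4652 (95% interval 835 to 183758) and 294 (52.8 to 11633), at an FDR of 0.0042 and 0.0032. Both genes were kept by the filter on low counts only through PPDO, and could only be called higher or not called. IL1A, a cytokine of keratinocytes, was at 152 and 169 CPM against 0.364 and 0.275 CPM (log2 fold change 9.37, SE 0.29, FDR 3.3e-04). CEBPA, a transcription factor of myeloid and epithelial differentiation, rose by 2.54 on the log2 scale (SE 0.26, FDR 0.0029), and CEBPD fell by 1.42 on the log2 scale (SE 0.17, FDR 0.0040). TLR4, a receptor of S100A8, was at 7.26 and 5.84 CPM against 24.2 and 23.5 CPM (log2 fold change -1.41, SE 0.20, FDR 0.0065), and at an FDR of 0.053 without PPDO 2. NFKB1, NFKBIZ and CEBPB did not pass, with log2 fold changes of 0.39 (SE 0.40, FDR 0.47), -0.03 (SE 0.92, FDR 0.98) and -1.35 (SE 0.60, FDR 0.13). The 2 primary sums lay apart for each, at 185 and 98.3 CPM, 271 and 39.9 CPM, and 142 and 51.1 CPM. In PPDO 1 and 2 these genes were at 134 and 143 CPM, 117 and 119 CPM, and 35.4 and 22.5 CPM. They were thus not shown to be unchanged.

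**Figure D5:**
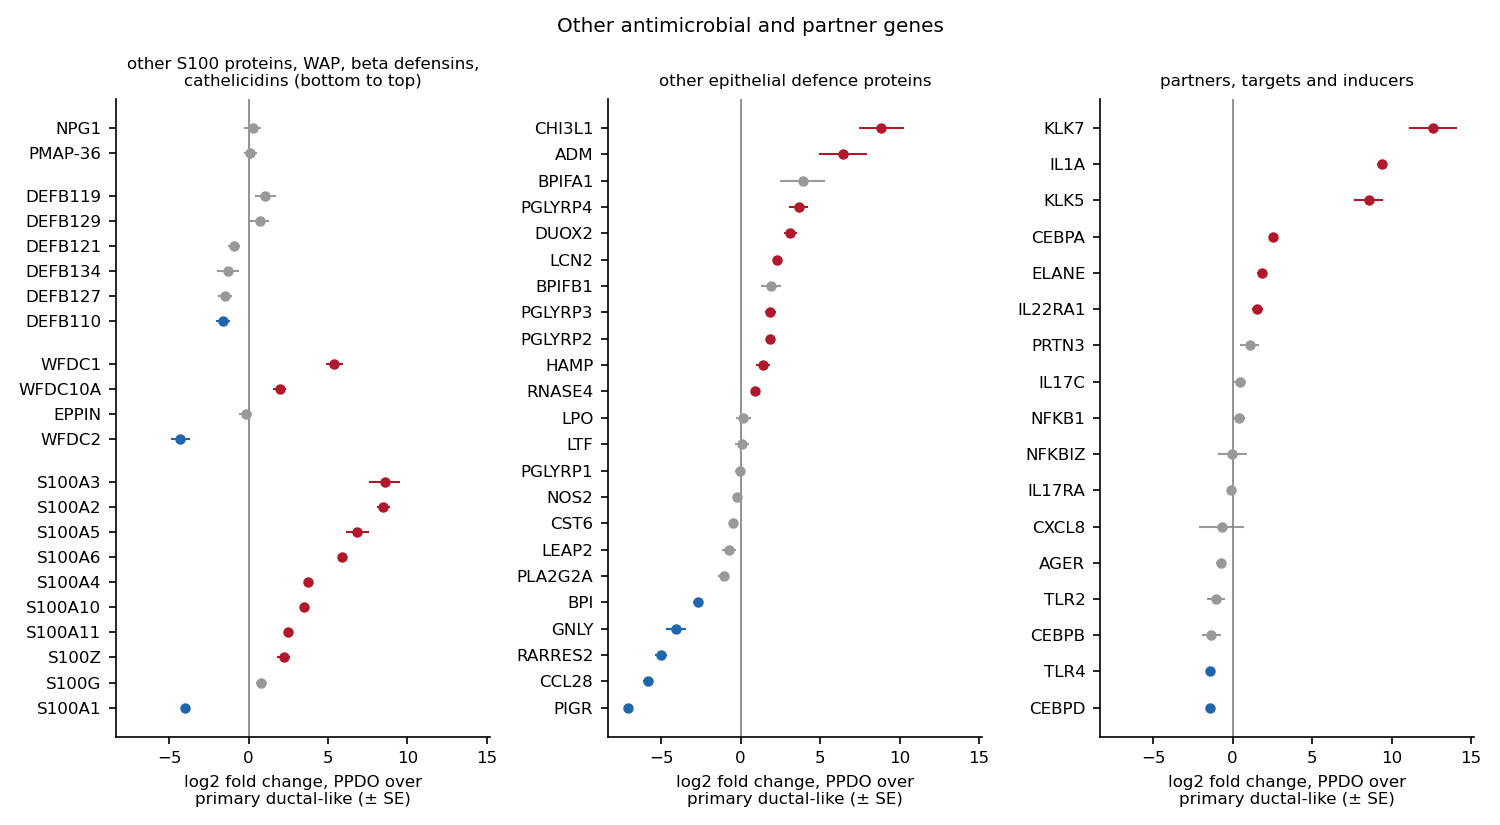
Log2 fold change (horizontal axis, PPDO over primary ductal-like cells, edgeR) of each tested gene in the 6 lists, with 1 row per gene, bars for the SE and the 4 members left out. Red points are higher in PPDO and blue points lower at an FDR of 0.05, and grey points did not pass. Of 10 other S100 genes, 8 lie to the right of 0 in red, and of 6 other beta defensins 1 is blue.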

How the data were processed

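Droplet 3′ single-cell RNA-Seq libraries of PPDO (2) and primary pancreas (2) were analysed. The authors deposited raw UMI counts per feature and cell, made with Cell Ranger 7.1.0 on Sscrofa11.1 with an annotation extended at the ends of genes, and free RNA was not removed from these deposited counts. Primary libraries were matched to the methods' preparations by replicate number.

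Features of a gene were summed. Cells were filtered after the study's limits: at most 3% (PPDO) or 8% (primary) mitochondrial UMIs, at most 9000 features, at least 400 or 800 features (primary 1 and 2), and 3000 UMIs in primary 2. The study set a floor of 600 features for one PPDO line and 1000 for the other; as the labels do not tie lines to libraries, 1000 was used for both and 600 as an alternative. Scrublet doublets of primary pancreas were removed (89 and 154 cells). Doublets were not searched for in PPDO, for which the study's methods describe no such step. Cells were clustered with Scanpy 1.11.5 (2000 variable genes without the members, 20 components, Leiden resolution 0.5). CPM are UMIs per 1000000 UMIs of the pooled cells. Sums per library were tested with edgeR 4.0.16 (TMM, filterByExpr, quasi-likelihood), a script tested on simulated data. Members, lists and the rule for named genes were chosen with earlier results of these data known. The rule named the members, the 5 most similar genes, up to 4 genes of largest change per list and direction, and up to 3 abundant genes per list that did not pass. Sequences were not used here. Alternatives were DESeq2 1.42.0, other size factors, filters, thinning, clusterings and features, a replicate block, and leaving out each library.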

Additional observations from a re-analysis of the deposited data

How the results depend on the processing

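Every alternative kept the direction of the 4 members between PPDO and ductal-like cells. The members were chosen for this difference in the same libraries, so the kept direction gives no independent support. Without each library in turn, the log2 difference lay between 10.86 and 12.97 for S100A8, 12.24 and 13.36 for S100A12, 5.61 and 6.55 for SLPI, and -16.7 and -15.9 for DEFB115. It moved by more than the spread between libraries for DEFB115 with gene bodies alone (-15.44, against a floor of 3 counts per PPDO library) and, in an alternative chosen after seeing the data, without the cornified-like cells (9.54 for S100A8, 10.71 for S100A12 and 3.34 for SLPI). The difference in the share of cells with a UMI was 13.9, 19.9, 7.31 and -75.8 percentage points for S100A8, S100A12, SLPI and DEFB115, 43.2, 57.8, 26.9 and -90.5 without thinning, and 5.34 and -56.8 for SLPI and DEFB115 at 1500 UMIs, so its size depends on depth. The mean cornified-like share of UMIs was 81.7% for S100A8 and 77.8% for S100A12, and rose to 88.4% and 86.3% with the members allowed in clustering, also chosen after seeing the data. There the members help to define the clusters, so a higher share gives no support. The cornified-like cells also grew from 409 and 499 to 615 and 663, or from 4.60% and 6.80% to 6.92% and 9.04% of cells. The count of all genes called was 10282, and between 4662 (without PPDO 2) and 10658 when 1 library was left out, 5085 without PPDO 1, where the lone library is assumed to vary like the others. The count of list genes called was 35, and between 25 and 36. Of the 35 list genes, 24 kept their call in all alternatives that tested them and none changed sign. The replicate numbers did not pair the samples (correlation of deviations -0.005 over 23558 genes). With the replicate block, 8378 genes and 32 list genes were called. With 2 libraries a group, changes smaller than the spread between libraries were not detectable.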
